A study of Homo sapiens with 8 samples.

Results

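YAP/TEAD regulators and targets were followed as 10 genes on 8 expression arrays of human breast cancer cells. They are the secreted matrix proteins CCN1 (formerly CYR61) and CCN2 (formerly CTGF), ANKRD1, AMOTL2, AJUBA, LATS2, CRIM1, the DNA-binding factor TEAD1 and the coactivators YAP1 and WWTR1. They were given as a list of genes, and every probe annotated to 1 of them was taken, 14 of 48803 Illumina probes and 25 of 54675 Affymetrix probe sets. Total RNA was measured with 2 arrays, A and B, for each of 4 groups of cells grown in DMEM with serum. The groups were LM2, labelled highly metastatic, against its parent MDA-MB-231, labelled poorly metastatic, on Illumina bead arrays, and LM2 over-expressing the microRNA miR-126 (LM2 miR-126) against LM2 control cells on Affymetrix arrays. MDA-MB-231 is a triple-negative breast cancer line. Which vector carried miR-126, what the control cells carried and whether a line was 1 clone was not stated in the sources. Nor is it stated that the A and B samples of a group were grown separately, so a p-value here speaks to the scatter of these samples alone, and that scatter may be technical.

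In the Hippo pathway, the kinases LATS1 and LATS2 phosphorylate YAP1 and its relative WWTR1 (also called TAZ) and keep them out of the nucleus. When these kinases are inactive, YAP1 and WWTR1 enter the nucleus, bind TEAD factors, which contact DNA, and switch on genes such as CCN1, CCN2 and ANKRD1. Some targets feed back on the pathway: LATS2 itself, and AMOTL2, an angiomotin-family scaffold that binds YAP1. AJUBA, a LIM-domain protein, inhibits LATS kinases. The activity of YAP1 and WWTR1 is set largely at the protein level, which arrays of RNA do not measure.

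The sequences of the agent and of a pair of target promoters show what the comparisons are about. The mature strands of MIR126, which lies in an intron of EGFL7, are given first from RefSeq (GRCh38.p14; 3p at chr9:136670653-136670674 and 5p at chr9:136670616-136670636, plus strand), with the seed (bases 2 to 8), which pairs with target transcripts, in capitals.
hsa-miR-126-3p: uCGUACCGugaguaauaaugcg
hsa-miR-126-5p: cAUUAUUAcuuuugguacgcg
Promoter windows of 300 bases, 250 before and 50 after the transcription start, were found for 7 of the 10 genes in RefSeq (GRCh38.p14). GGAATG, the core of the element that TEAD factors bind, was searched on both strands. So was TGANTCA, with any base at N, a pattern that includes the usual site of FOS and JUN proteins but is looser than it. No copies overlapped. CCN2 and ANKRD1 held more than 1 copy of GGAATG and are printed 5′ to 3′ on the strand of the gene, with matches to either motif in capitals.
CCN2 (chr6:131951323-131951622, minus strand): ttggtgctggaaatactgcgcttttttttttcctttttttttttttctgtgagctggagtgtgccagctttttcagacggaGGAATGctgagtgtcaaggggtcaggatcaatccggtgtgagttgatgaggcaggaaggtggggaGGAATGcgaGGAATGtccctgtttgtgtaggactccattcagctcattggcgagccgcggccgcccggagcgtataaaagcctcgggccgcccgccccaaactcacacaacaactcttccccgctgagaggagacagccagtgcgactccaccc
ANKRD1 (chr10:90921038-90921337, minus strand): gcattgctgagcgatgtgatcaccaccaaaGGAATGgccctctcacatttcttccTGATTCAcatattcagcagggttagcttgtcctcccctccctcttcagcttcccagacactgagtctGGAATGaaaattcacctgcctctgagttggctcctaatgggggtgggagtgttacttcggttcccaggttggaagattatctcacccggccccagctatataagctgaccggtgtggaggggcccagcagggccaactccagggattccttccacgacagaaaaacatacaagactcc
CCN2 held 3 copies of GGAATG, beginning 169, 104 and 95 bases before the start. ANKRD1 held 2 copies, at 220 and 128 bases before it, and 1 match to TGANTCA at 195 bases, with T at the open base. A window of AMOTL2, of AJUBA, of LATS2 and of YAP1 held 1 copy of GGAATG each, and the windows of WWTR1 held none of either motif. Of 35116 promoter windows of this length, 14% held GGAATG and 7.71% held TGANTCA. A match describes the letters and is not a measured binding site.

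Facts of the whole tables bear on every value below. Marker signals were mixed. Those of VIM, CD44, CAV1 and MSN, genes typical of mesenchymal-type breast cancer cells, lay above at least 98.9% of all probes on both platforms. The progesterone receptor gene PGR and the leukocyte gene PTPRC lay below the median of all probes on both, and the oestrogen receptor gene ESR1 did on the Illumina arrays. The epithelial genes EPCAM, KRT8, KRT18 and KRT19 lay above at least 87.0% of all probes on the Illumina arrays and above at least 78.6% on the Affymetrix arrays. The collagen gene COL1A1 lay at the 83.3 and 97.9 percentiles on the Illumina and Affymetrix arrays, and the monocyte gene CD14 at the 92.6 and 63.5 percentiles. The other fibroblast genes lay lower, COL3A1 at 4.83 and 18.8, LUM at 61.5 and 4.58, PDGFRA at 52.3 and 46.4 and DCN at 68.4 and 62.9. The T-cell gene CD3E lay at 35.3 and 67.8. With limma on the log2 scale, 105 genes were higher and 184 lower in LM2 than in MDA-MB-231 at an adjusted p under 0.05, which is 2.31% of 12490 genes tested. Quantile normalization gave 131 and 131, and cyclic loess 135 and 142. Of 12923 genes tested, 0% were called in LM2 miR-126 against LM2 control, and 1010 had an unadjusted p under 0.05. Of 6 luminal epithelial genes tested, 5 stood lower in LM2 with no overlap (28.1% of all genes did). CDH1 was among them with a call (-0.54, limma adjusted p = 0.0340). Its lowest LM2 value, 6.77 log2, lay at the median of all probes (6.77), so it was tested mainly through its MDA-MB-231 level. Of 4 fibroblast genes tested, 2 stood higher and 2 lower, and only COL1A1 was called (1.94, limma adjusted p = 0.0013). In LM2 miR-126 against LM2 control, 5 of 6 luminal epithelial genes tested stood lower after quantile normalization. For 4 of them the groups did not overlap, beside 19% of all genes, and none was called. The part of these in the members' values was not tested. In bulk cells, fewer cells of a type and less RNA per cell cannot be told apart. The mature miRNA was not measured. The miR-126 arrays themselves differed by 0.284 log2 on average over genes, against 0.0871 log2 between the control arrays. Affymetrix values are log2 of the intensity relative to the array's median after quantile normalization, Illumina values are log2(intensity + 16), and only genes whose mean lay above the median of all probes were tested.

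The first comparison set the metastatic derivative against its parent. LM2 cells had about the same CCN1 and CCN2 signal as MDA-MB-231 on one array and clearly less on the other. The mean of CRIM1 stood 2.05-fold lower in LM2, just short of the threshold, and the coactivators YAP1 and WWTR1 stood 1.27-fold and 1.34-fold higher without passing it. None of the 9 members tested passed at an adjusted p under 0.05 with limma, beside 2.31% of all genes (0.841% higher and 1.47% lower). At an unadjusted p under 0.05, 2 members were found, CRIM1 and WWTR1, beside 14.4% of all genes. The groups did not overlap for 5 of the 9, 2 higher and 3 lower in LM2, beside 44% of all genes (15.9% higher and 28.1% lower). The median difference of the 9 was -0.092 log2, against -0.041 over all genes, and 6 of them stood below 0, as did 58.2% of all genes.

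CCN1, a matricellular protein and early target of YAP1 and TEAD, had intensities of 9878 and 5464 on LM2 arrays A and B, against 10712.5 and 10465 on MDA-MB-231 arrays A and B. LM2 array B was therefore the low one, while LM2 array A lay only slightly below both MDA-MB-231 arrays. The mean was 12.85 ± 0.60 log2 in LM2 and 13.37 ± 0.024 in MDA-MB-231 (SD, n = 2 each), a difference of -0.53 (SE 0.29, 95% interval -1.16 to 0.11, limma adjusted p = 0.463). Without LM2 array A the difference was -0.95, and without LM2 array B it was -0.10.

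CCN2, its paralog, which promotes matrix production, showed the same split. Its brighter probe read 5984 and 2827 in LM2, against 5492 and 5258 in MDA-MB-231, so LM2 array A was the highest of the 4 arrays and LM2 array B the lowest. The difference of -0.38 log2 (SE 0.32, 95% interval -1.10 to 0.33, limma adjusted p = 0.670) became 0.15 without LM2 array B and -0.92 without LM2 array A. The other CCN2 probe read 3928 and 1693 in LM2, against 3769 and 3713 in MDA-MB-231, with a difference of -0.53.

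The LM2 arrays differed by 0.85 log2 for CCN1 and by 1.08 log2 for CCN2. A gap at least as large between these arrays was found for 0.52% and 0.16% of the 12490 genes. The MDA-MB-231 arrays differed by 0.034 log2 for CCN1 and 0.063 for CCN2. LM2 array A was above array B for 8 of the 9 members tested, with a median gap of 0.20 log2, against 64.5% of all genes and a median of 0.072. Among 11 immediate early genes, which respond to serum within minutes, array A was above array B for 11, with a median gap of 0.32 log2 and a mean absolute gap of 0.648. Between the MDA-MB-231 arrays, array A was above array B for 7 of these 11, with a median gap of 0.25 log2 and a mean absolute gap of 0.881. A link between the gaps of these genes and those of CCN1 and CCN2 was not tested.

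CRIM1, a transmembrane protein with cysteine-rich repeats that binds BMP ligands, had intensities of 339 and 230 in LM2, against 504 and 690 in MDA-MB-231. Both LM2 arrays lay below both MDA-MB-231 arrays. The means were 8.21 ± 0.37 log2 in LM2 and 9.24 ± 0.31 in MDA-MB-231 (SD, n = 2 each), a difference of -1.04 (SE 0.25, 95% interval -1.58 to -0.50, limma adjusted p = 0.0578). The call depended on the setting. It passed under a robust variance prior (adjusted p = 0.0360), with the replicate letter as a block (adjusted p = 0.00894) and with array A of MDA-MB-231 left out (-1.26, adjusted p = 0.0210), and over all other settings of the fit by gene the adjusted p lay between 0.0576 and 0.501. In the fit over all probes it was 0.0548.

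ANKRD1, a nuclear cofactor of striated muscle that is also a standard YAP1 target, read 8.75 and 8.69 log2 on LM2 arrays A and B, against 8.99 and 9.04 on MDA-MB-231 arrays A and B. Both LM2 arrays were lower, by a mean of 0.30 log2 (difference -0.30, SE 0.20, limma adjusted p = 0.565). Its LM2 arrays were 0.061 log2 apart, so it did not share the gap of CCN1 and CCN2.

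The tested feedback and scaffold genes had differences near 0. LATS2 read 7.49 and 7.16 log2 in LM2, against 7.25 and 7.39 in MDA-MB-231, and the LM2 values lay on either side of the MDA-MB-231 values (difference 0.007, limma adjusted p = 0.992). AJUBA, which binds LATS kinases, had 3 probes, all lower in LM2 on average. The groups did not overlap for the dimmer probes, at -0.26 and -0.32, and for the brightest, which stood for the gene, LM2 read 7.55 and 7.53 between 7.38 and 7.88 in MDA-MB-231 (difference -0.09, limma adjusted p = 0.893). The brightest probe gave 0.16 once the second MDA-MB-231 array was left out and -0.34 once the first was. The AMOTL2 probe lay below the median of all probes, at 6.60 and 6.53 log2 in LM2, against 6.48 and 6.51 in MDA-MB-231, and was not tested.

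The transcription factors and coactivators completed the set. YAP1 read 889 and 772 in intensity in LM2, against 611 and 687 in MDA-MB-231, with no overlap (difference 0.35 log2, SE 0.22, 95% interval -0.13 to 0.82, limma adjusted p = 0.528). WWTR1 read 156 and 144 in LM2, against 102 and 114 in MDA-MB-231, with no overlap (difference 0.43 log2, SE 0.13, 95% interval 0.14 to 0.71, limma adjusted p = 0.133). The WWTR1 level of MDA-MB-231, 6.95 log2, was under the 75th percentile of all probe means (7.16), where unsubtracted background can distort a difference. Its part in the WWTR1 difference was not tested. WWTR1 kept its direction in each array left out in turn, from 0.36 to 0.50, and YAP1 from 0.25 to 0.45. TEAD1 lay near the median of all probes, at 6.71 and 6.92 log2 in LM2, against 6.86 and 6.91 in MDA-MB-231 (difference -0.07, limma adjusted p = 0.831), and its other probe, below the filter, stood at 0.04.

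**Figure D1:**
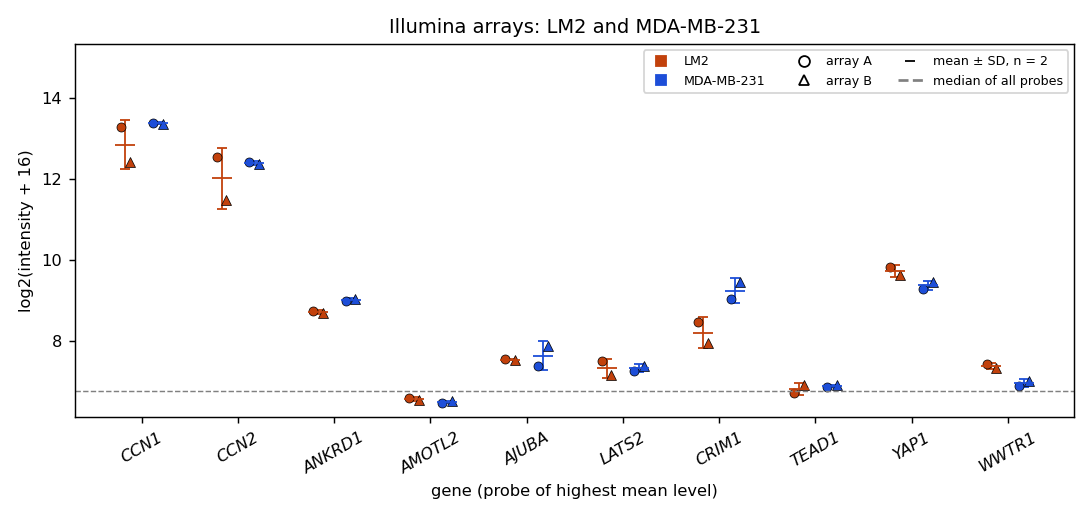
Log2(intensity + 16) of each gene on the Illumina arrays, with LM2 left of MDA-MB-231, circles for array A, triangles for array B, and bars for mean ± SD (n = 2). LM2 array B lies apart for CCN1 and CCN2, and both LM2 arrays lie below MDA-MB-231 for CRIM1 and above it for YAP1 and WWTR1; the dashed line is the median of all probes.

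The second comparison asked what miR-126 over-expression did to the same genes in LM2. On average CCN2 stood 1.36-fold higher and CRIM1 1.56-fold higher in miR-126 cells than in control cells, and neither passed the threshold. Both miR-126 arrays lay above the control arrays for CCN2 and CRIM1, with CRIM1 far above them on array A and slightly on array B. The YAP1 probe set that stood for the gene lay at the control level. None of the 9 members tested passed at an adjusted p under 0.05 with limma, beside 0% of all genes. At an unadjusted p under 0.05, 1 member was found, CCN2, beside 7.82% of all genes. After quantile normalization the groups did not overlap for 4 of the 9, 3 higher and 1 lower, beside 40.4% of all genes (21.4% higher and 19% lower). The median difference of the 9 was 0.048 log2, against 0.020 over all genes. With 1 miR-126 array left out the spread came from the control pair alone and calls rose over all genes. No count of members is therefore read from those fits. Without miR-126 array A and without array B, CCN1, CCN2 and CRIM1 were higher each time. The differences of AMOTL2, AJUBA, LATS2 and WWTR1 changed sides of 0 between the fits.

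CCN2 read 5.21 and 5.02 log2 on miR-126 arrays A and B, against 4.66 and 4.70 on control arrays A and B. Both miR-126 arrays were above both control arrays, and the difference was 0.44 (SE 0.10, 95% interval 0.17 to 0.71, limma adjusted p = 0.484). It was 0.34 without miR-126 array A and 0.54 without array B. CCN1 read 6.43 and 6.44 log2 in miR-126 cells, against 6.36 and 6.31 in control cells, a difference of 0.10 (SE 0.060, limma adjusted p = 0.727). Its other probe set stood at 0.002 with overlapping groups, so the CCN1 probes did not share a difference.

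CRIM1 was higher on all 3 probe sets, with no overlap between the groups on any of them after quantile normalization; on the deposited scale the third overlapped. The probe set that stood for the gene read 4.20 and 3.43 log2 in miR-126 cells, against 3.15 and 3.19 in control cells, so array A was set far above control and array B slightly. The difference was 0.64 (SE 0.27, 95% interval -0.04 to 1.33, limma adjusted p = 0.643), with 1.03 without miR-126 array B and 0.26 without array A. The other probe sets stood at 0.52 and 0.16. CRIM1 was thus on opposite sides of 0 in the comparisons, at -1.04 in LM2 against MDA-MB-231 and at 0.64 in LM2 miR-126 against LM2 control; these share no array, and the difference between them was not tested.

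For the feedback and scaffold genes the miR-126 arrays lay on either side of the control arrays. AMOTL2, which was well measured only here, read 3.97 and 3.29 log2 in miR-126 cells, against 3.62 and 3.54 in control cells (difference 0.05, limma adjusted p = 0.972). LATS2 read 4.27 and 3.71 log2 in miR-126 cells, against 3.81 and 3.80 in control cells (difference 0.19, limma adjusted p = 0.852), and its other probe sets ranged from -0.085 to 0.25. AJUBA read 5.22 and 4.65 log2 in miR-126 cells, against 5.11 and 5.09 in control cells (difference -0.16, limma adjusted p = 0.870), with 3 of its 4 probe sets below 0. In each case array A was the higher and array B the lower of all 4 arrays. Without miR-126 array A the differences became -0.29 for AMOTL2, -0.10 for LATS2 and -0.45 for AJUBA, and without array B 0.39, 0.47 and 0.12. The ANKRD1 probe set lay below the filter, at 0.07 and -0.70 log2 in miR-126 cells, against -0.56 and -0.42 in control cells.

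After quantile normalization WWTR1 was lower on miR-126 array A than on array B on all 3 probe sets, and all 3 stood below 0 on average. The brightest probe set read 4.32 and 5.09 log2 in miR-126 cells, against 4.73 and 4.79 in control cells, so array A was the lowest and array B the highest (difference -0.06, limma adjusted p = 0.970). A second read 3.11 and 3.51 log2 in miR-126 cells, against 3.41 and 3.35 in control cells. The dimmest read 2.64 and 2.87 log2 in miR-126 cells, against 3.24 and 3.26 in control cells, with no overlap and a difference of -0.49. On the deposited scale this set read 6.72 on miR-126 array A and 6.65 on array B, so array A was the higher there. For the brightest one the difference was 0.33 without miR-126 array A and -0.44 without array B.

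YAP1 read 31.4 and 30.2 times the array median in miR-126 cells, against 29.2 and 32.7 times in control cells on the deposited scale, with both miR-126 values between the control values. After quantile normalization the means were 4.94 ± 0.075 log2 in miR-126 cells and 4.95 ± 0.071 in control cells (SD, n = 2 each; difference -0.01, SE 0.094, 95% interval -0.25 to 0.23, limma adjusted p = 0.990). This interval is the narrowest of the regulators here. The other YAP1 probe sets stood at 0.08 and 0.32, with overlapping groups after quantile normalization. On the deposited scale the groups of the set at 0.32 did not overlap, at 6.18 and 6.52 in miR-126 cells against 4.56 and 5.90 in control cells. TEAD1 read 5.09 and 4.87 log2 in miR-126 cells, against 5.18 and 5.10 in control cells (difference -0.16, SE 0.11, limma adjusted p = 0.747). Both miR-126 arrays were lower after quantile normalization. On the deposited scale the groups overlapped, at 35.91 and 27.56 in miR-126 cells against 35.63 and 35.12 in control cells. Its other probe sets stood at -0.15 and, below the filter, at -0.31.

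**Figure D2:**
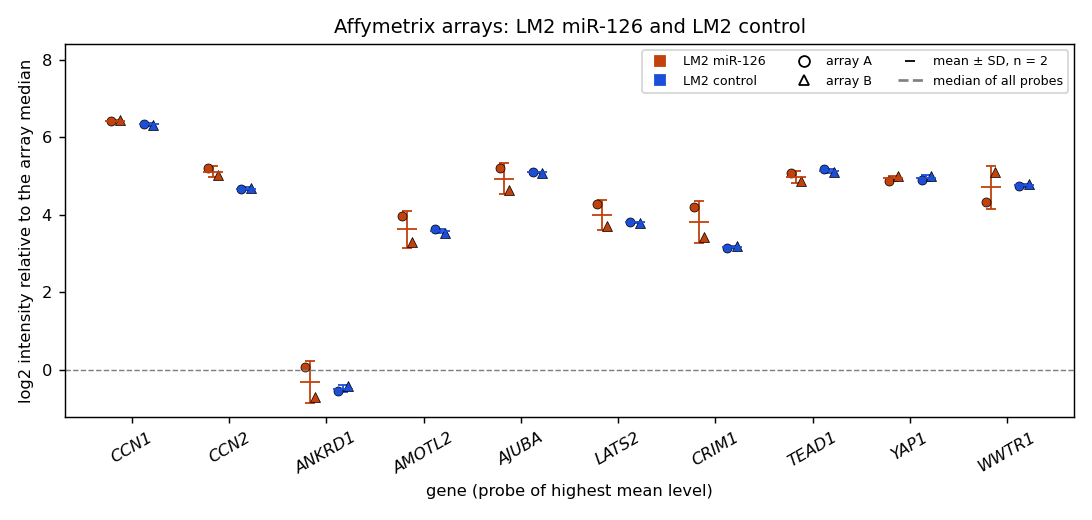
Log2 intensity relative to the array median of each gene on the Affymetrix arrays, with LM2 miR-126 left of LM2 control, circles for array A, triangles for array B, and bars for mean ± SD (n = 2). The control arrays lie close together, while the miR-126 arrays lie on either side of them for AMOTL2, AJUBA, LATS2 and WWTR1 and above them for CCN2 and CRIM1; the dashed line is the median of all probes.

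**Figure D3:**
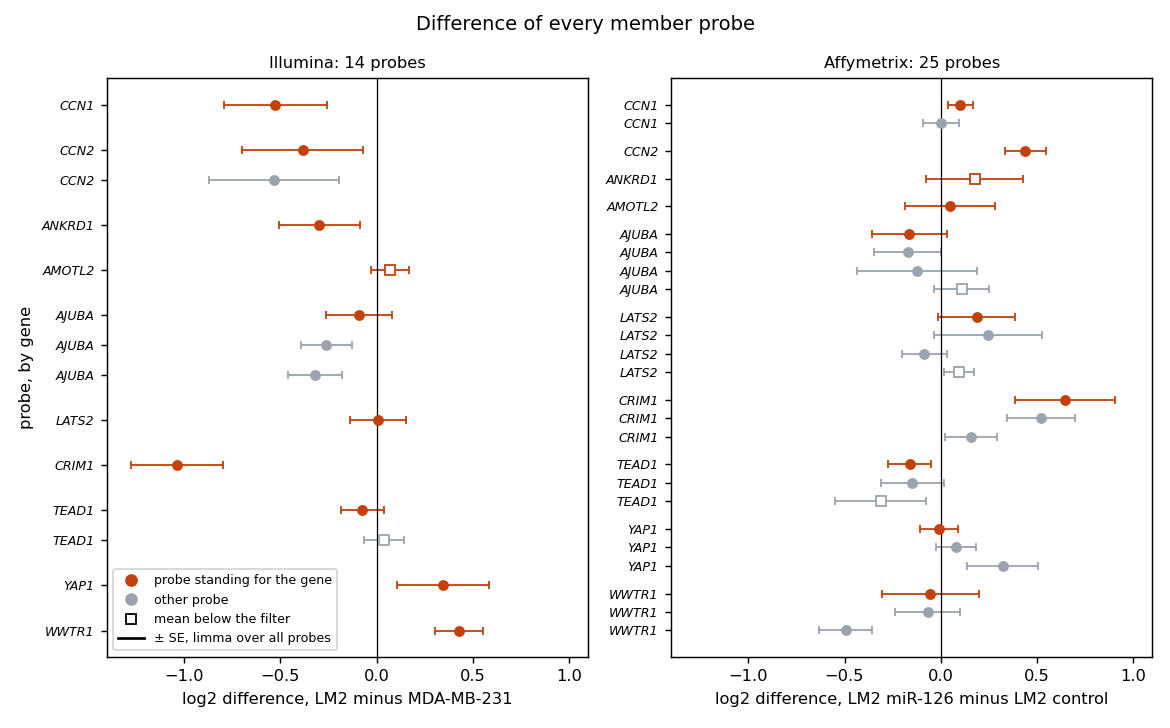
Log2 difference of each of the 14 Illumina and 25 Affymetrix probes, LM2 minus MDA-MB-231 on the left and LM2 miR-126 minus LM2 control on the right, with bars of ± SE from limma over all probes. The probe that stands for a gene is coloured, others are grey, and open squares lie below the filter; the probes of CCN2 and CRIM1 lie on one side of 0 in each panel, and those of LATS2 and YAP1 on the Affymetrix arrays do not.

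In a fit over every probe with 1 gene symbol and no filter, 349 of 28098 Illumina probes and 0 of 41091 Affymetrix probe sets passed at an adjusted p under 0.05 with limma, and no member probe did in either table. The gaps between the miR-126 arrays were wide for several members. Array A was above array B by 0.78 log2 for CRIM1, 0.68 for AMOTL2, 0.57 for AJUBA and 0.56 for LATS2, and below it by 0.77 for WWTR1 (A minus B -0.77). As large a gap was found for 5.08% of all genes at the CRIM1 value and for 11.8% at the LATS2 value. Of 10 immediate early genes tested, 2 were higher on miR-126 array A than on array B, with a median gap of -0.37 log2, against 47.0% of all genes and a median of -0.022. For all 9 members the control arrays were at most 0.10 log2 apart. CRIM1 and LATS2 were also higher on array A in LM2, by 0.53 and 0.33 log2, but nothing says that a letter marks a shared culture.

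**Figure D4:**
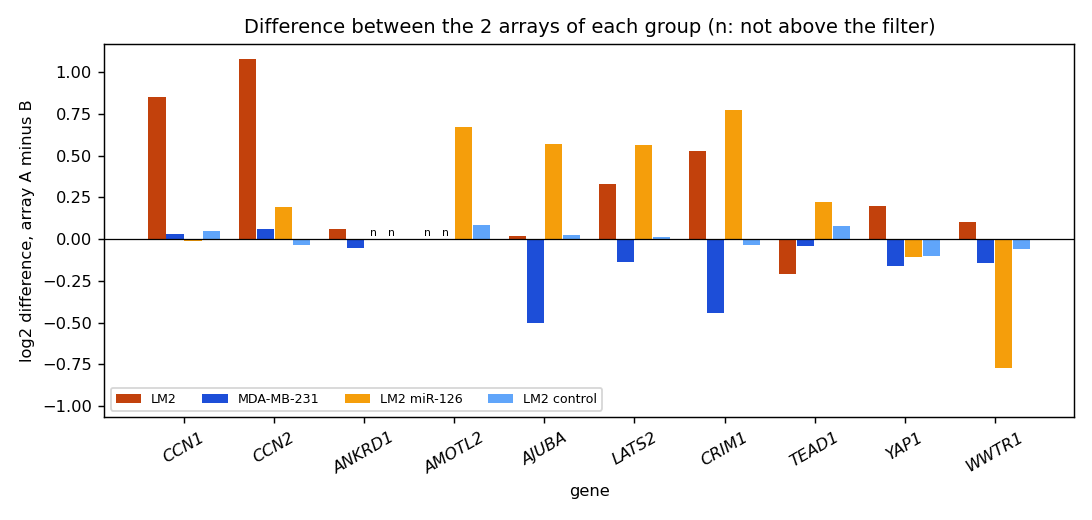
Log2 difference of array A minus array B in each of the 4 groups, by gene, on the scale of each platform; n marks a gene not above the filter. The bars reach 1.08 for CCN2 and 0.85 for CCN1 in LM2 and stay within 0.10 of 0 in LM2 control.

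Other genes of the pathway were counted in lists. Of 21 core kinases, scaffolds and upstream regulators, 15 were tested in LM2 against MDA-MB-231, with 7 higher and 8 lower. Only 1 passed the threshold, lower (6.67%), beside 2.31% of all genes (1.47% lower). This was WWC1 (KIBRA), a scaffold that activates LATS kinases, at 7.62 and 7.75 log2 in LM2, against 8.94 and 9.12 in MDA-MB-231 (difference -1.35, SE 0.19, limma adjusted p = 0.0045). The LM2 arrays lay well below the MDA-MB-231 arrays, and without LM2 array A the difference was -1.28 with an adjusted p of 0.0820. WTIP, a relative of AJUBA, stood at -0.56 (adjusted p = 0.157). The list's median was -0.03, against -0.04 over all genes. In LM2 miR-126 against LM2 control, 0 of 19 tested passed with limma, and the smallest p belonged to FAT4, an atypical cadherin (0.52, adjusted p = 0.484), and MOB1B, a cofactor of LATS kinases (0.46, adjusted p = 0.488); 5 had an unadjusted p under 0.05, 4 of them higher, beside 7.82% of all genes. WWC1 was among these, at 0.65 (adjusted p = 0.629).

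Of 15 other published YAP1 and WWTR1 targets, 14 stood lower in LM2 than in MDA-MB-231, with a median of -0.26 log2 against -0.04 over all genes, of which 58.2% stood lower. Only 2 passed the threshold, 13.3% beside 2.31% of all genes. These were F3, tissue factor, which starts coagulation, at 8.09 and 8.57 log2 in LM2, against 9.98 and 9.57 in MDA-MB-231 (difference -1.44, SE 0.24, limma adjusted p = 0.0111), and TGFB2, a TGF-beta ligand, at 8.56 and 8.30 log2 in LM2, against 9.44 and 9.38 in MDA-MB-231 (difference -0.98, SE 0.21, limma adjusted p = 0.0346). Neither gene's groups overlapped. F3 lost its call without LM2 array A (-1.20, adjusted p = 0.174), TGFB2 without LM2 array A (-1.11, adjusted p = 0.174) or B (-0.86, adjusted p = 0.368), and both under a variance prior without a trend (adjusted p = 0.0594 and 0.0568). The exception in direction was NT5E, an ectonucleotidase, named after its value was seen, at 0.89 (adjusted p = 0.0676). The count of lower genes was 14 under quantile normalization and cyclic loess and 13 or 14 with any array left out, and the median was -0.15 without LM2 array B and -0.43 without LM2 array A. In LM2 miR-126 against LM2 control, 7 of 14 tested targets stood higher and 7 lower, with a median of 0.03, and 0 passed with limma. Of the 14, 1 had an unadjusted p under 0.05, beside 7.82% of all genes. This was ASAP1, a regulator of ARF GTPases (-0.35, adjusted p = 0.573), followed by the membrane repair protein MYOF (-0.19, adjusted p = 0.650). F3 stood at -0.08 (adjusted p = 0.974) and TGFB2 at 0.07 (adjusted p = 0.927) there.

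TEAD and VGLL relatives had no call in either comparison with limma. In LM2 against MDA-MB-231, TEAD3 (0.22, adjusted p = 0.328) had the smallest p of 5 tested and the cofactor VGLL1 followed (0.16, adjusted p = 0.532). TEAD3 averaged 6.91 log2 in LM2 and 6.69 in MDA-MB-231, below the median of all probes (6.77), so it was tested only through its LM2 level. In LM2 miR-126 against LM2 control, the cofactor VGLL3 had the smallest p of 6 tested (0.83, adjusted p = 0.589) and TEAD3 followed (0.32, adjusted p = 0.722). TEAD3 and VGLL3 were the 2 relatives with an unadjusted p under 0.05. This was 1 of 5 in LM2 against MDA-MB-231, beside 14.4% of all genes, and 1 of 6 in the other comparison, beside 7.82%.

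CCN1, CCN2 and ANKRD1 also respond to SRF with its MRTF cofactors and to serum, so these lists were counted beside them. Of 9 SRF targets tested in LM2 against MDA-MB-231, 1 was past the threshold (11.1%), beside 2.31% of all genes. This was the smooth muscle actin ACTG2 (0.72, limma adjusted p = 0.0064, and 0.0993 under a variance prior without a trend). It averaged 7.22 log2 in LM2 and 6.50 in MDA-MB-231, below the median of all probes (6.77), so it entered the test only through its LM2 level and its call supports nothing here. The myosin light chain MYL9 stood at -0.74 (adjusted p = 0.0784, and 0.0429 with the replicate letter as a block), but its other probe stood at -0.10 and the average of both at -0.42 (adjusted p = 0.184). Of the 9, 7 stood lower, beside 58.2% of all genes, with 6 under quantile normalization or cyclic loess and 5 without LM2 array B. None of 11 immediate early genes tested passed with limma. JUN (0.80, adjusted p = 0.163) and FOSL1 (0.67, adjusted p = 0.218), subunits of AP-1, had an unadjusted p under 0.05, 2 of 11 beside 14.4% of all genes. With 1 array left out at a time JUN ran from 0.51, without array A of MDA-MB-231, to 1.08, without array B of MDA-MB-231. In LM2 miR-126 against LM2 control, 0 of 9 SRF targets and 0 of 10 immediate early genes passed with limma. The stress factor ATF3 (-1.0, adjusted p = 0.462, and 0.0412 with the replicate block), FOSL1 (-0.73, adjusted p = 0.479, and 0.0312 with the block) and the tropomyosin gene TPM1 (0.43, adjusted p = 0.484) had an unadjusted p under 0.05 on their brightest probe sets. These were 2 of 10 immediate early genes and 1 of 9 SRF targets, beside 7.82% of all genes. The other probe sets above the filter stood at -0.37 for ATF3 and at 0.17, 0.048 and 0.048 for TPM1, and the focal adhesion protein vinculin, VCL, stood at -0.18 (adjusted p = 0.643).

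The genes whose pattern over the 8 arrays was most like that of CCN1 were PPP3R1, the regulatory subunit of calcineurin (distance 0.15 log2), and the endoplasmic reticulum protein CKAP4 (0.21). Those most like CCN2 were the mitochondrial ribosomal protein MRPL50 (0.25), the branched-chain aminotransferase BCAT2 (0.35) and the cold-inducible RNA-binding protein CIRBP (0.36). Likeness was the Euclidean distance between log2 values centred within each platform, over 9773 genes tested on both, as a description of 8 arrays.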

How the data were processed

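Expression was measured on 8 arrays, 2 for each of 4 groups taken from the sample titles. The authors deposited 1 table of linear intensity values per platform. The deposited Illumina intensities have a median of 94.39 on LM2 array A and a lowest value of 43.21 over the arrays. Background therefore remains in them, which can understate differences of dim genes. The deposited Affymetrix intensities have a median of 1 on LM2 miR-126 array A and were read as relative to the median of each array. The software and normalization behind them were not stated in the sources, and no detection calls or scanner files were used. The number of arrays limits the precision.

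Gene symbols came from the platform annotation, brought up to date against RefSeq by Entrez identifier (28059 of 28098 Illumina probes and 41037 of 41091 Affymetrix probe sets with 1 symbol matched; 13 and 1801 had several symbols and 20692 and 11721 none, and these and 62 Affymetrix controls were left out). Illumina values were taken as log2(value + 16) on the deposited scale, because quartiles differed by 0.0493 log2 between arrays. Affymetrix values were taken as log2 and quantile normalized, because theirs differed by 0.165. The probe of highest mean stood for a gene, and only genes brighter than the median probe were tested.

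Each table was fitted over all its genes with limma 3.58.1 in R 4.3.3 (lmFit, eBayes with trend). P-values were two-sided and adjusted by Benjamini-Hochberg, with calls made under 0.05. Exact permutation of 2 against 2 arrays has a smallest p of 0.3333, so calls depend on the variance that limma pools over genes. The steps were tested on simulated data. The members, the 5 lists of other pathway genes and the rules were chosen with earlier results of these data known. Named from the lists were genes past the threshold and, per list and comparison, the 2 of smallest p, and for CCN1 and CCN2 the 3 genes of most similar pattern, of which 1 for CCN1 is not reported here. The alternatives were other scalings, pseudocounts, filters, probe rules and variance priors, the replicate letter as a block, and each array left out in turn. Python 3.11.15 with matplotlib 3.10.9 made the figures.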

Additional observations from a re-analysis of the deposited data

How the results depend on the processing

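The count of members past the threshold in LM2 against MDA-MB-231 was 1 under a robust variance prior and 1 with the replicate letter as a block, where the gene was CRIM1, and 0 to 1 with an array left out. The count of other pathway genes, 4 as reported with ACTG2 among them, was 1 under a variance prior without a trend and 1 to 6 with an array left out. The count over all genes, 289 as reported, was 184 when all probes of a gene were averaged, 107 under the prior without a trend, 620 with the replicate block and 86 to 691 with an array left out. In LM2 miR-126 against LM2 control, where no gene was called as reported, the replicate block gave 2 other pathway genes and 51 genes in all. With an array left out the counts ran from 0 to 7 members, 0 to 37 other pathway genes and 0 to 4806 genes in all. The high counts came when 1 miR-126 array was left out, over all genes as well as members, since the spread then comes from the control pair alone. They are not read as a result about the members. Each of AMOTL2 and WWTR1 changed sides of 0 between the fit without miR-126 array A and the fit without array B.

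Some members reversed. With an array left out the difference in LM2 against MDA-MB-231 ran from -0.92 to 0.15 for CCN2, -0.34 to 0.16 for AJUBA, -0.16 to 0.17 for LATS2 and -0.18 to 0.030 for TEAD1, and a dimmer TEAD1 probe stood at 0.039. In LM2 miR-126 against LM2 control it ran from -0.29 to 0.39 for AMOTL2, -0.45 to 0.12 for AJUBA, -0.10 to 0.47 for LATS2, -0.063 to 0.042 for YAP1 and -0.44 to 0.33 for WWTR1. Single probe sets stood at 0.11 for AJUBA, -0.085 for LATS2 and 0.32 and 0.080 for YAP1, and YAP1 was at 0.0064 under cyclic loess and 0.13 with the mean of its probe sets. The cause was not tested.

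The letters A and B are shared by all groups, but nothing says that they pair the samples. The differences of A minus B correlated across genes by 0.128 between LM2 and MDA-MB-231 and by 0.0598 between LM2 miR-126 and LM2 control, and genes are not independent replicates. The replicate block changed the member count only through CRIM1.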
